A study of Mus musculus with 6 samples.

Results

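The genes described here are 10 that cells switch on within minutes of a stimulus or a stress, measured in the lenses of newborn mice. They are the immediate early genes Fos, Jun, Junb, Egr1, Egr2, Atf3 and Dusp1 and the stress-inducible chaperone genes Hspa1b, Dnajb1 and Hsph1. Every probe set whose annotation named only 1 of these symbols was taken, which gave 16 probe sets of 22626 tested, and each of the 10 genes, of 12393 named on the array, had at least 1. Of the 6 samples, 3 came from Le-AP-2alpha conditional mutants, whose targeted gene Tcfap2a (now Tfap2a) encodes a transcription factor, and 3 from wild-type littermates, all at postnatal day 0 (P0). Each sample was 1 one-colour array. The labels name no Cre driver, no deleted exon, no strain and no sex, and do not state how many animals a sample holds. The p-values therefore cover the spread between samples, which may be technical. The labels record that lenses were dissected, but give no time from death to RNA isolation and no dissection date. Handling and genotype therefore cannot be told apart within any 1 array, and the values below set the spread among arrays of a group beside the difference between groups.

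Immediate early genes need no new protein for their induction. Growth factors, calcium and mechanical or osmotic stress act through kinases on factors already bound to their promoters, mainly serum response factor with its ternary complex partners at the CArG box and CREB family proteins at the cyclic AMP response element (CRE). Their mRNAs are short-lived, so their level reports recent events. The chaperone genes answer to heat shock factors, which bind inverted repeats of the triplet GAA when unfolded protein accumulates. In tissue work both groups are known to respond to dissection as well as to biology, and the lens in addition carries high constitutive chaperone expression in its fibre cells.

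The promoters were searched for letters of the sites through which such signals are known to act. They are printed for the genes whose values are described most fully below. RefSeq windows of GRCm38.p6 were found for 9 of the 10 genes. The 250 bases before each start were searched for GAANNTTC and TTCNNGAA (palindromic heat shock elements), TGACNTCA on both strands (CRE-like), TATAAA and the CArG box. Each line gives the 150 bases before the start, or 30 bases around the match where the window lay inside the span of the same gene, and capitals mark the matches. The windows are chr12:85473740-85473889 (plus strand) for Fos, chr4:95052223-95052372 (minus) for Jun, chr17:26508473-26508622 (minus) for Dusp1, chr10:67537484-67537513 (plus) for Egr2, chr17:34959239-34959388 (minus) for Hspa1b, chr8:83608025-83608174 (plus) for Dnajb1 and chr5:149636351-149636380 (minus) for Hsph1.
Fos: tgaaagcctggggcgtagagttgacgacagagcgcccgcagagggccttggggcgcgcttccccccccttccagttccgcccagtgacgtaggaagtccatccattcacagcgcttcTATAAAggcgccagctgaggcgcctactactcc
Jun: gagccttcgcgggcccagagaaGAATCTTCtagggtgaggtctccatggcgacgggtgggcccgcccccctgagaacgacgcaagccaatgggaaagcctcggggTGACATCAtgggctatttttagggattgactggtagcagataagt
Dusp1: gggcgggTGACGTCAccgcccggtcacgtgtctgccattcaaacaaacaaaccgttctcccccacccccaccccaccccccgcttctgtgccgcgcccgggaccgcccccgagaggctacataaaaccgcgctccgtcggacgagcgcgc
Egr2: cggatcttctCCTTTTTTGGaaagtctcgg
Hspa1b: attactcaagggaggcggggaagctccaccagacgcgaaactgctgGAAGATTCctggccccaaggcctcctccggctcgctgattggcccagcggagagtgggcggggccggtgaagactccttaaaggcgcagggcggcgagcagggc
Dnajb1: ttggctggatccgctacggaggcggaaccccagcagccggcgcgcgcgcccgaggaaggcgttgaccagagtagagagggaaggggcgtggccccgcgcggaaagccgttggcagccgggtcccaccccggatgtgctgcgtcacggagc
Hsph1: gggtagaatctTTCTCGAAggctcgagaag

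Hspa1b held GAAGATTC at 104 to 97 bases before its start, Hsph1 held TTCTCGAA at 33 to 26 bases, and either palindrome occurred in 12.8% of all 32851 windows. Neither of the 2 listed Dnajb1 windows held these letters. Jun also held GAATCTTC, at 128 to 121 bases, and Egr2 held TTCCGGAA before 1 of its listed starts, at 131 to 124 bases, outside the stretch printed. The CRE-like letters, present in 7.49% of windows, were found in Jun (TGACATCA, at 45 to 38 bases) and in Dusp1 (TGACGTCA, at 143 to 136 bases). Egr2 had a CArG box before 4 of its 5 listed starts, against 1.47% of all windows. The letters were CCTTTTTTGG before 1 start and CCATATATGG before the others, at 72 to 63, 73 to 64 and 133 to 124 bases. Windows of 1 gene can overlap, so the latter may be a single site and the 4 are not independent. Fos had TATAAA at 33 to 28 bases, against 7.59%. These matches describe letters only and say nothing of binding in the lens. Sites with other letters, or more than 250 bases before the start, were not searched for. A gene without a match, such as Fos for the CRE-like letters and the CArG box, may therefore still hold such a site.

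Values are log2 of the deposited intensity, and levels of different probe sets are not compared with each other. A probe set whose mean over the 6 arrays was under the median probe set, 5.26, is called dim, since small differences there are compressed. This applied to 6 of the 16 probe sets, those of Junb, Atf3, both of Egr2 and 2 of the 3 of Hspa1b. Where a gene had several probe sets, the brightest stands for it. The arrays had median log2 levels of 5.19 to 5.32. Wild-type replicate 1 stood apart, its correlations with the rest (over all probe sets) being 0.926 to 0.945 while the rest correlated at 0.974 to 0.985 with each other, and the differences it moves most are given without it too. Tfap2a itself had higher means in the mutants on all 3 of its probe sets, at 9.57, 9.64 and 9.83 against 8.36, 9.26 and 9.56 on the brightest (0.62 ± 0.33, SE, or 0.27 without wild-type replicate 1), and with differences of 1.57 ± 0.49 and 0.36 ± 0.36 on the others, each at a limma adjusted p of 0.999. The position of these probes relative to the deleted part is not known here, so this does not check the labels.

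**Figure D1:**
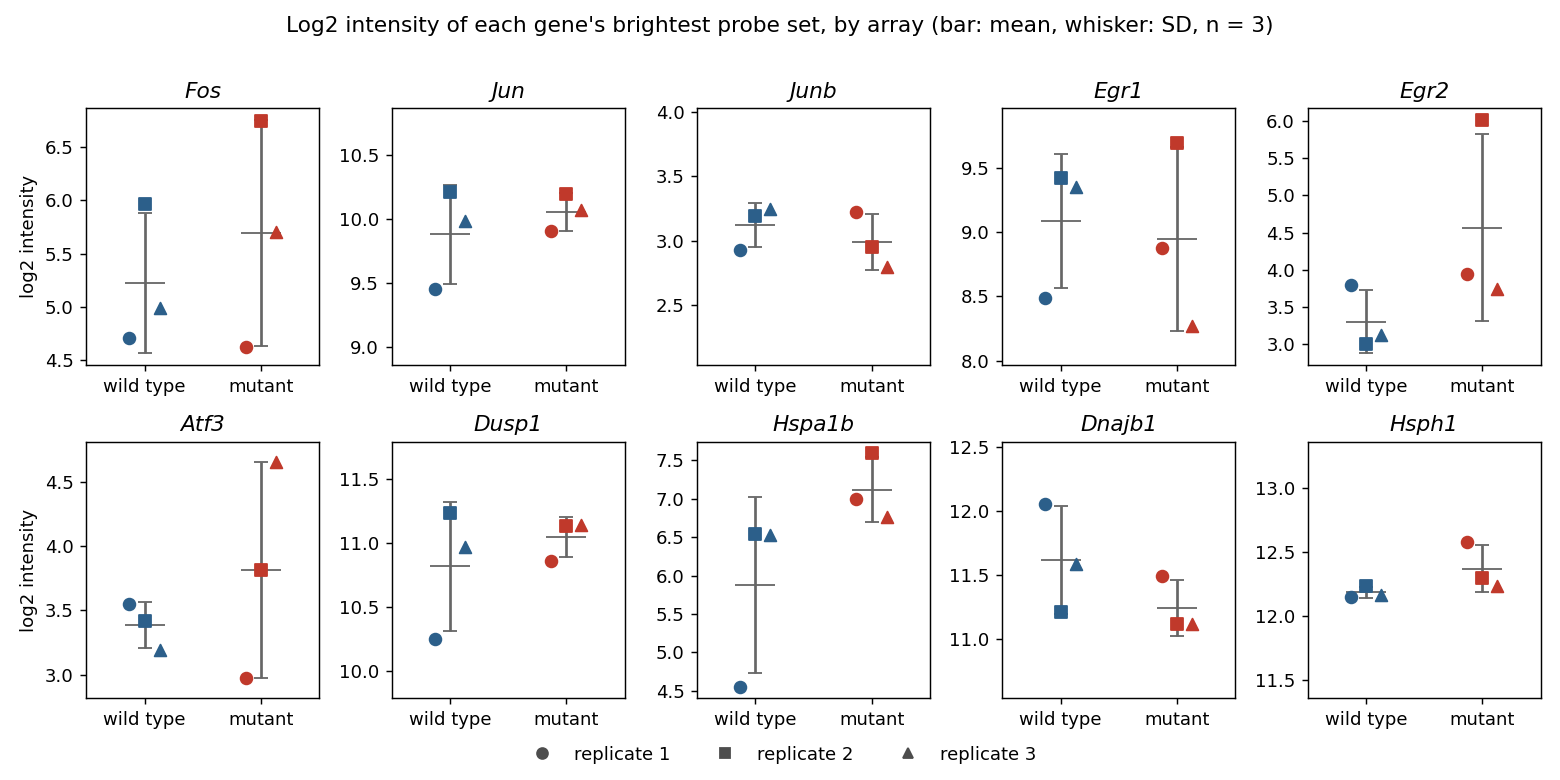
Log2 intensity of the brightest probe set of each of the 10 genes in 3 wild-type and 3 mutant arrays, with the mean (bar) and SD (whisker); each panel has its own vertical range, of at least 2 log2 units. The groups overlap in every panel except Hspa1b, and the widest scatter within a group is that of Egr2 in the mutants, where replicate 2 is at 6.01 and the others at 3.94 and 3.74.

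No member passed the test between genotypes. limma called 0 of the 16 probe sets, all with an adjusted p of 0.999, as it called 0 of all probe sets (0%), and 0 of the 16 had an unadjusted p under 0.05 either, against 3.28% of all probe sets. Of the 10 genes, 7 had higher and 3 lower means in mutants, and 5 of the 10 differences were smaller than their own standard error. The median difference, mutant minus wild type, was 0.21 over the 10 genes and -0.02 over all probe sets. Without wild-type replicate 1 it was 0.06, and without that array and mutant replicate 2 it was -0.09. In all 10 genes the range within 1 of the groups was wider than the difference between the group means, as it was for 96.5% of all probe sets. The groups did not overlap in 1 of the 10 genes, Hspa1b, and in 3 of the 16 probe sets, against 8.36% of all probe sets.

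Fos, the partner that Jun proteins need to form the classical AP-1 factor, had a wide range among samples of 1 genotype. That range exceeded the difference between group means, as the larger within-group range did for 96.5% of all probe sets. Its log2 levels were 4.63, 6.75 and 5.71 in mutants and 4.71, 5.97 and 4.99 in wild types. The highest array was mutant replicate 2 and the lowest mutant replicate 1, with every wild type between them. Within each group replicate 2 was highest and replicate 1 lowest. The 2.12 log2 units between those mutant samples compare with a difference between groups of 0.47 ± 0.59 (SE, limma adjusted p = 0.999), with a 95% interval from -0.94 to 1.88. Leaving out single arrays moved it from -0.06 (without mutant replicate 2) to 1.003 ± 0.51 (without mutant replicate 1); it was 0.84 without wild-type replicate 2 and 0.21 without wild-type replicate 1. The pooled SD within groups of 0.88 was wider than that of 93.0% of all probe sets.

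Jun, the other AP-1 subunit, able to pair with itself, was steadier. Its brightest probe set was at 9.90, 10.19 and 10.07 in mutants and 9.46, 10.21 and 9.98 in wild types, with wild-type replicate 1 lowest and the others overlapping. The groups differed by 0.17 ± 0.24 (SE), or by -0.04 with wild-type replicate 1 left out. On the second probe set of Jun it was 0.57 ± 0.34, and 0.23 without that array, which was again the lowest at 4.45 against 5.36 to 6.03. Junb, a Jun relative that often restrains Jun, was dim on all arrays, at 3.22, 2.95 and 2.79 in mutants and 2.93, 3.19 and 3.24 in wild types, with a difference of -0.13 ± 0.20.

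The zinc finger factors Egr1 and Egr2, which share a GC-rich binding site, were both highest in mutant replicate 2 but differed in the other arrays. Egr1, induced by serum and by injury in many epithelia, was at 8.87, 9.70 and 8.27 in mutants and 8.49, 9.43 and 9.35 in wild types. Mutants held both its highest array, replicate 2, and its lowest, replicate 3. Its difference was -0.14 ± 0.43 (SE), with a 95% interval from -1.17 to 0.89, and it was -0.52 without mutant replicate 2, -0.44 without wild-type replicate 1 and 0.20 without mutant replicate 3. Egr2, known for its part in Schwann cell myelination and also expressed by activated macrophages, was dim.

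Egr2 was highest in 1 lens sample. Its brightest probe set was at 3.94, 6.01 and 3.74 in mutants and 3.79, 2.996 and 3.12 in wild types, and the other probe set at 3.39, 5.12 and 3.04 against 2.78, 2.91 and 2.77. Mutant replicate 2 was highest on both, and on the second probe set the other mutants also lay above every wild type. The differences were 1.26 ± 0.62 (SE) and 1.03 ± 0.53, the largest positive differences among the members together with that of Hspa1b, at limma adjusted p of 0.999. Without mutant replicate 2 they were 0.54 and 0.40, and without wild-type replicate 1 as well they were 0.78 ± 0.23 and 0.38 ± 0.25.

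Macrophage and leukocyte genes peaked in the same array as Fos, Egr1, Egr2 and Hspa1b. That array, mutant replicate 2, was the highest for 4 of the 10 members, against 12.1% of all probe sets. The mean log2 level of 16 such genes was 6.97 in mutant replicate 2, 5.44 and 5.90 in the other mutants, and 5.35, 5.51 and 5.44 in the wild types. Of the 16, 13 had their highest array in mutant replicate 2, against 12.1% of all probe sets. All 16 had higher means in mutants, against 46.4% of all probe sets, with 0 called. Ptprc, the leukocyte common antigen, and Cd68, a lysosomal glycoprotein, had the lowest p of the list and were dim. They are the 2 of the 16 whose groups did not overlap, against 8.36% of all probe sets. In both all mutants lay above all wild types, against 3.74%. Ptprc had mutant and wild-type means of 4.44 ± 0.70 and 3.36 ± 0.13 (SD, n = 3), and Cd68 of 4.79 ± 0.73 and 3.89 ± 0.20. Without mutant replicate 2 the median difference of the list fell from 0.69 to 0.21. Ptprc then differed by 0.77 (from 1.08), Cd68 by 0.50 (from 0.90) and the macrophage marker Adgre1 by 0.06 (from 0.67). Only Aif1 (-0.38, from 0.05) and Cd163 (-0.17, from 0.24) were then lower in mutants, and the rest of the 16 stayed higher. Adgre1, Aif1 and Cd163 were picked after their values were seen. Among 6866 genes brighter than the median probe set, those whose levels followed Fos most closely over the 6 arrays were Tapbp (Pearson r = 0.952), Fcgr2b (0.942), Ctss (0.941), Srgn (0.936) and Uso1 (0.924). Fcgr2b is an inhibitory Fc receptor of leukocytes, Ctss a lysosomal protease of antigen-presenting cells and Srgn a granule proteoglycan of blood cells. Fcgr2b was at 5.31, 8.67 and 6.82 in mutants and 4.34, 7.94 and 6.31 in wild types, so that mutant replicate 2 and wild-type replicate 2 were its highest arrays, as they were for Fos. These correlations over 6 arrays of a shared normalisation are a ranking and carry no test, and the part of leukocyte RNA in the Fos and Egr2 values was not tested. In a whole lens, fewer cells of a type and less RNA per cell cannot be told apart.

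**Figure D2:**
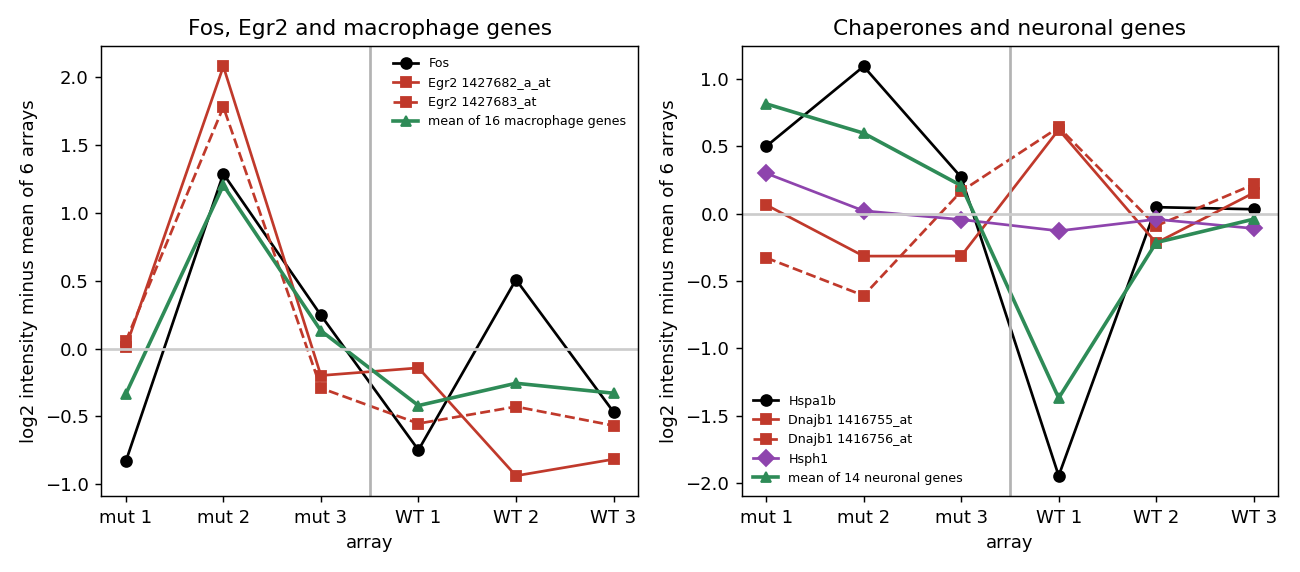
Log2 intensity minus the mean of the 6 arrays, by array (lines only link points of 1 series; replicates have no order). On the left, Fos, both Egr2 probe sets and the mean of 16 macrophage genes all peak in mutant replicate 2; on the right, Hspa1b and the mean of 14 neuronal genes are lowest in wild-type replicate 1, where both Dnajb1 probe sets are highest, and Hsph1 lies between 12.15 and 12.58 before the mean is taken off.

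Atf3, a stress-induced member of the ATF/CREB family that mostly represses, and Dusp1, the phosphatase that switches off MAP kinases after stress, did not share the peak in mutant replicate 2. Atf3 was dim at 2.97, 3.82 and 4.65 in mutants and 3.55, 3.42 and 3.19 in wild types. Mutants held both its extremes, replicate 3 high and replicate 1 low, and the difference was 0.43 ± 0.42 (SE). It was 0.0061 without mutant replicate 3 and 0.85 ± 0.32 without mutant replicate 1. Dusp1 was bright in every array, at 10.86, 11.13 and 11.14 in mutants and 10.25, 11.23 and 10.97 in wild types. Wild-type replicate 1 was the low one, and the difference of 0.23 ± 0.29 became -0.05 without it and 0.44 without wild-type replicate 2.

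Among the chaperones, Hspa1b, the inducible cytosolic HSP70 that refolds denatured protein, had the only groups that did not overlap. Its brightest probe set was at 6.997, 7.59 and 6.77 in mutants and 4.55, 6.55 and 6.53 in wild types. Each mutant lay above each wild type, but the gap between the nearest arrays was narrow and wild-type replicate 1 lay far below the rest. The difference was 1.24 ± 0.57 (SE), 2.37-fold, with a 95% interval from -0.14 to 2.62, a limma adjusted p of 0.999 and an exact two-sided permutation p of 0.1, the smallest that 3 against 3 can give. Without wild-type replicate 1 it was 0.58 ± 0.28, and without mutant replicate 2 as well it was 0.34. Such a separation with mutants above was seen in 3.74% of all probe sets.

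The other probe sets of Hspa1b were near the bottom of the scale and carried little signal. They lay between 2.28 and 2.76, with a difference of -0.07 ± 0.20 (SE), and between 2.67 and 3.12, with a difference of 0.27 ± 0.17. On the latter the mutants, at 2.95, 3.12 and 2.99, were again all above the wild types, at 2.67, 2.74 and 2.85. All 3 probe sets share 1 source accession in the annotation. Hspa1a, a near-identical neighbouring copy, could share their signal, and its promoter matched that of Hspa1b at 247 of 250 bases. Its own probe set was dim, at 2.69, 2.92 and 2.91 against 2.68, 2.68 and 2.80, a difference of 0.12 ± 0.17.

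Dnajb1, the HSP40 co-chaperone that loads clients onto HSP70, had the opposite sign. It was at 11.50, 11.12 and 11.12 in mutants and 12.05, 11.21 and 11.59 in wild types on 1 probe set, and at 9.29, 9.01 and 9.79 against 10.26, 9.53 and 9.84 on the other. Wild-type replicate 1 was the highest array on both and mutant replicate 2 the lowest (on the first level with mutant replicate 3), the reverse of Hspa1b. The differences were -0.38 ± 0.27 (SE) and -0.51 ± 0.29, at limma adjusted p of 0.999, and without wild-type replicate 1 they were -0.16 and -0.32. Hsph1, the HSP110 protein that exchanges nucleotide on HSP70, was at 12.58, 12.30 and 12.23 in mutants and 12.15, 12.24 and 12.17 in wild types, close together, with only mutant replicate 1 set apart. Its difference of 0.19 ± 0.18 had a 95% interval from -0.25 to 0.62, and was 0.08 without that array. A second Hsph1 probe set was at 8.09, 6.41 and 6.81 against 6.81, 7.13 and 6.39, with the same array highest and a difference of 0.33 ± 0.46, or 0.67 without mutant replicate 2.

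Markers of neurons shared their lowest array with Hspa1b, but not their highest. The mean level of 14 neural retina and neuronal genes was 7.44, 7.22 and 6.83 in mutants and 5.26, 6.41 and 6.58 in wild types. Wild-type replicate 1 was lowest, as for Hspa1b, while mutant replicate 1 was highest, against mutant replicate 2 for Hspa1b. All 14 had higher means in mutants, against 46.4% of all probe sets, 0 were called, and 3 were dim. Their median difference was 1.20, and 0.61 without wild-type replicate 1. That array was the lowest for 11 of the 14, against 24.2% of all probe sets and 33.9% of those above the median level. The lowest p in that list belonged to Scg3, a granin of secretory granules (1.33 ± 0.21, SE), Elavl3, a neuronal RNA-binding protein (1.36 ± 0.24), and Gap43, a growth cone protein (1.73 ± 0.45). The part of neuronal RNA in the Hspa1b value was not tested. The genes whose levels followed Hspa1b most closely over the 6 arrays were Plekhb2 (r = 0.993), Leprot (0.991), Dsn1 (0.99), the replication clamp Pcna (0.985) and the glial glutamate transporter Slc1a3 (0.982). Each of these had its lowest value in wild-type replicate 1, for example 6.36 against 8.36 to 9.05 for Slc1a3. Hspa1b was itself far lowest in that array, so the ranking selects genes that are low there, and it carries no test.

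**Figure D3:**
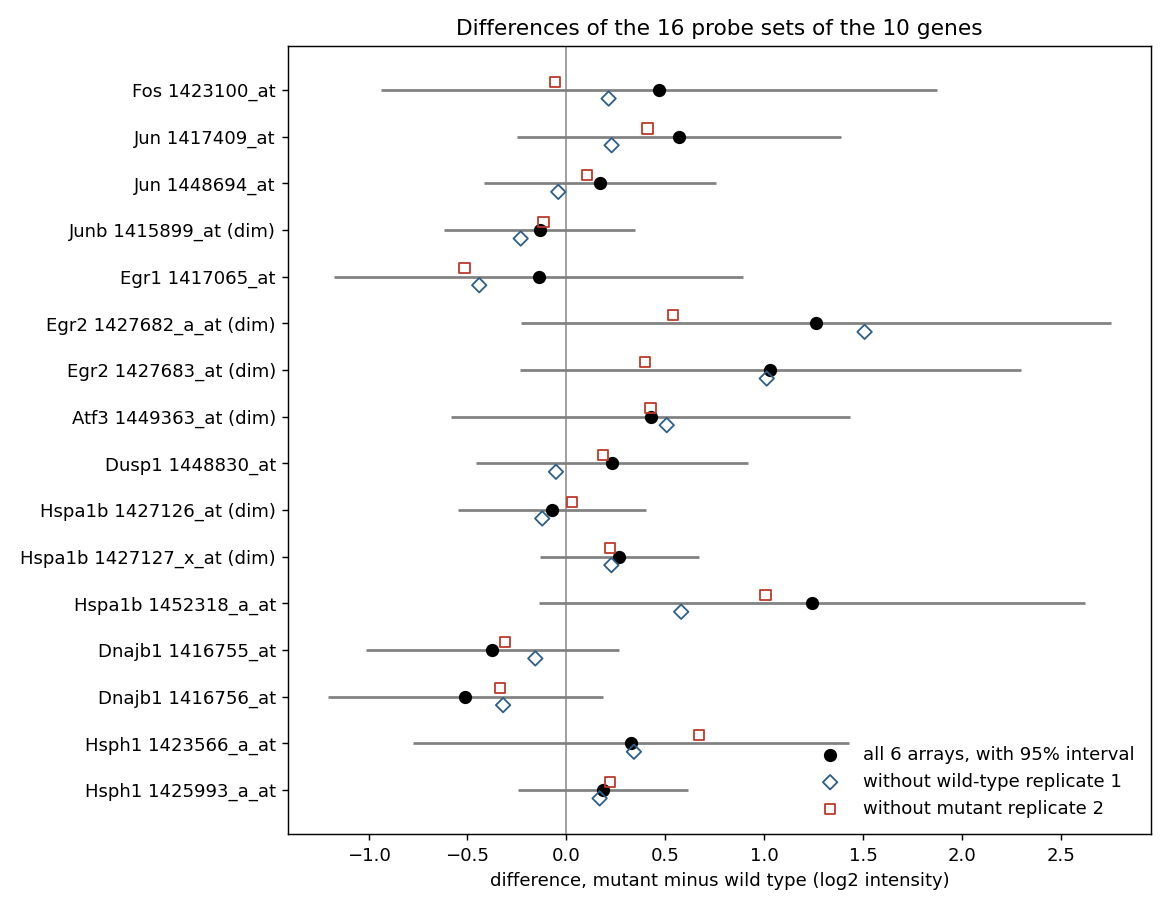
Difference in log2 intensity, mutant minus wild type, for each of the 16 probe sets, with the 95% interval of the limma fit on all 6 arrays and the value without wild-type replicate 1 (diamonds) or without mutant replicate 2 (squares). Every interval includes 0, the squares of Egr2 fall to 0.54 and 0.40, and the diamond of the brightest Hspa1b probe set falls to 0.58.

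The scatter among arrays of a group was wide for some members and narrow for others. The median pooled SD within groups was 0.49 over the 10 genes and 0.35 over all probe sets, and 6 of the 10 lay above the latter. The SD depended on level: its median was 0.46 over probe sets above the median level and 0.26 over those below. Only 3 of the 10 genes were dim, so 0.49 is near the value of the brighter probe sets. The percentiles that follow take no account of level. Egr2 (0.94), Fos (0.88), Hspa1b (0.86), Egr1 (0.63) and Atf3 (0.61) had the widest, at the percentiles 94.6, 93.0, 92.4, 81.2 and 79.8 of all probe sets. Hsph1 (0.13) and Junb (0.19) had the narrowest. In 6 of the 10 genes the mutants had the larger SD, against 34.9% of all probe sets. Without wild-type replicate 1 the median over the 10 genes was 0.29.

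**Figure D4:**
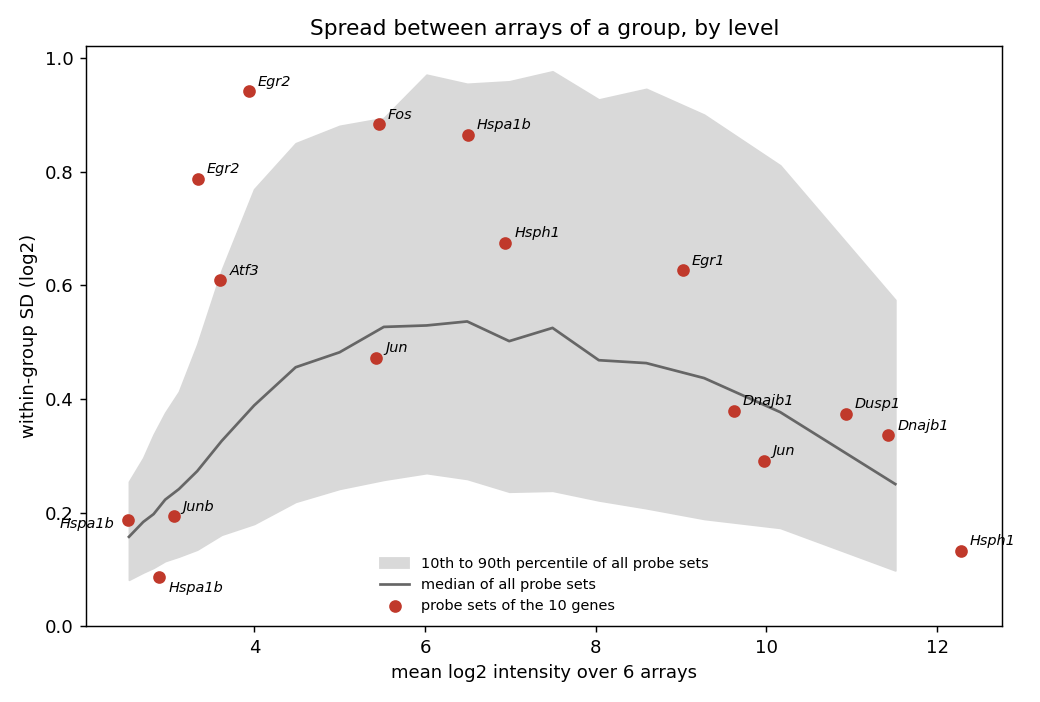
Pooled within-group SD (log2) against mean log2 intensity for the 16 probe sets, over the median and the 10th to 90th percentile of all probe sets in 20 bins of level. Both Egr2 probe sets lie above the band for their level, and Fos and Atf3 lie near its upper edge. The brightest probe sets of Jun, Dusp1, Dnajb1 and Hsph1 lie in the lower part of the vertical range, at or under 0.37. Dusp1 (0.37) and Dnajb1 (0.34) are not narrow for their level, as the bin medians are 0.38 at a level of 10.16 and 0.25 at 11.51.

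The wider set of immediate early genes had no common direction. Of 42 listed genes, 40 were measured and 21 of these were dim. Of the measured genes 23 had higher and 17 lower means in mutants, 0 were called by limma in either direction, and 2 had an unadjusted p under 0.05, both lower. Their median difference was 0.08, and -0.12 without wild-type replicate 1. The groups did not overlap in 7 of the 40, against 8.36% of all probe sets. In 3 of these all mutants lay above all wild types (3.74% of all probe sets) and in 4 below (4.61%).

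The lowest p in that list belonged to the growth arrest gene Gadd45g, its relative Gadd45b and the zinc finger gene Egr3. Gadd45g was at 8.23, 8.02 and 9.07 in mutants and 9.73, 8.89 and 9.56 in wild types, a difference of -0.96 ± 0.36 (SE). Gadd45b was at 10.55, 9.36 and 10.34 against 10.63, 10.69 and 11.14, with every mutant below every wild type and a difference of -0.74 ± 0.35. Egr3, dim, differed by -0.53 ± 0.21 and was also apart, at 3.79 to 4.21 against 4.26 to 4.69. Other classical early genes were dim. The orphan receptor Nr4a1 differed by 0.14 ± 0.19, Fosb by 0.12 ± 0.30, Ier2 by -0.29 ± 0.24 and the mRNA-decay factor Zfp36 by 0.30 ± 0.41, or by -0.10 without wild-type replicate 1. The limma adjusted p was 0.999 for each of them.

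Wild-type replicate 1 was the lowest of the 6 arrays for 18 of these 40 genes and for 4 of the 10 members (Jun, Dusp1, Hspa1b and Hsph1), against 24.2% of all probe sets and 33.9% of those above the median level. Among the 19 list genes above that level it was lowest for 10. Sgk1, a kinase induced by serum and by glucocorticoids, and Ccn1, a matricellular protein, were picked after their values were seen, as was Socs3, an inhibitor of cytokine signalling. Sgk1 was at 7.60 in that array and at 10.84 to 11.46 in the others, and Ccn1 at 3.86 against 7.28 to 7.81. The same array was the highest for 9 of the 40, against 32.2% of all probe sets and 35.1% of those above the median level. Among the 9 was Socs3, at 8.12 against 6.14 to 7.44. The labels and control probe sets do not set it apart. The difference between the 3′ and 5′ control probe sets of Gapdh and beta-actin averaged 1.30 in that array, up to 1.77 in mutants and 0.98 and 1.68 in the other wild types.

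**Figure D5:**
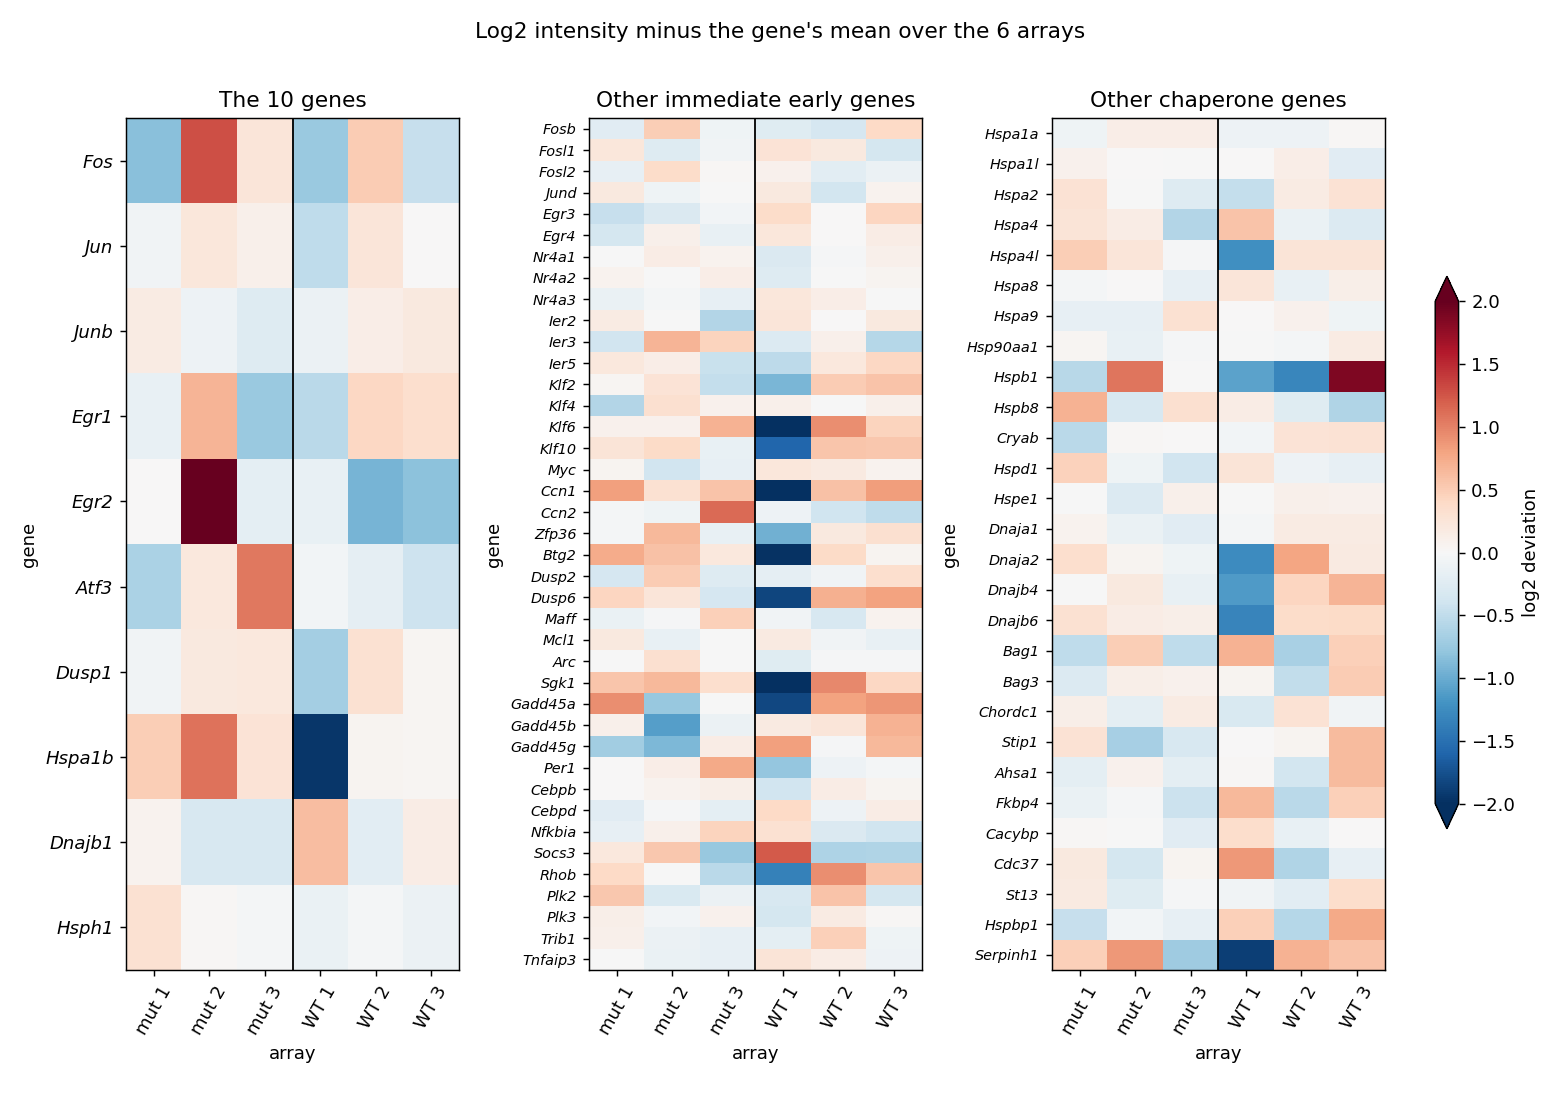
Log2 intensity minus the mean of the gene over the 6 arrays, for the 10 genes, 40 other immediate early genes and 28 other chaperone genes; colours are capped at 2 log2 units. The darkest blue column entries are those of wild-type replicate 1, among them Hspa1b, Sgk1 and Ccn1, while Fos and Egr2 have their reddest cells in mutant replicate 2.

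Other chaperones and co-chaperones had no common direction either. Of 31 listed genes, 28 were measured and 3 were dim. Of these, 11 had higher and 17 lower means in mutants, with a median difference of -0.05 (-0.11 without wild-type replicate 1), 0 were called, 0 had an unadjusted p under 0.05 and in 0 did the groups not overlap. The lowest p belonged to the HSP70 to HSP90 adaptor Stip1 (-0.47 ± 0.31, SE), the small heat shock protein Cryab, a crystallin abundant in fibre cells (-0.34 ± 0.23), and Hspb8 (0.46 ± 0.33). The constitutive chaperones Hspa8 and Hsp90aa1 differed by -0.13 ± 0.19 and -0.08 ± 0.17. Hspb1, a heat-inducible small heat shock protein, was at 6.99, 8.62 and 7.54 in mutants and 6.49, 6.24 and 9.43 in wild types. Wild types held its extremes, so that its difference of 0.33 ± 0.90 had the widest error of the chaperones named, and was -0.12 with wild-type replicate 1 left out and also -0.12 with mutant replicate 2 left out instead.

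The known regulators were measured for 18 of 23 listed genes, of which 10 had higher and 8 lower means in mutants, with 0 called, 0 at an unadjusted p under 0.05 and a median difference of 0.06 (-0.05 without wild-type replicate 1). The lowest p belonged to the stress kinase Mapk8, which phosphorylates Jun (0.98 ± 0.57, SE, and 0.31 without wild-type replicate 1), the ribosomal S6 kinase Rps6ka3 (0.33 ± 0.24) and Hsf4, the heat shock factor of lens fibres (-0.68 ± 0.55). Hsf4 was at 6.56, 8.07 and 7.24 in mutants and 8.10, 7.02 and 8.78 in wild types, which overlap. Serum response factor, Srf, differed by 0.17 ± 0.27, or by -0.08 without wild-type replicate 1. Hsf1 was not represented by a probe set of that single symbol in the annotation used.

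The arrays carried the labelled tissue. The mean log2 level of 11 fibre cell genes was 10.36 to 10.67 in mutants and 10.85 to 11.08 in wild types. It was thus lower in every mutant array, and 10 of the 11 genes had lower means in mutants. That of 15 lens epithelium genes was 8.66 to 8.81 and 8.69 to 9.14, which overlap. Of the marker lists for cells outside the lens, 9 of 11 corneal and skin epithelium genes and 9 of 10 skeletal muscle genes were dim. The mean of 13 stroma and periocular mesenchyme genes was 4.88 to 5.93 in mutants and 4.45 to 4.99 in wild types, and that of 9 pigment cell genes 6.06 to 6.17 and 5.71 to 6.02, the former overlapping and the latter higher in every mutant array. Blood vessel endothelium (12 genes, 6.45 to 6.77 and 6.68 to 6.82) and red blood cell genes (4 genes, 2.91 to 4.96 and 2.78 to 4.75) overlapped. Limma called 0 genes in each of these lists, and their part in the values of the 10 genes was not tested.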

How the data were processed

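Total RNA of dissected lenses was isolated with a column kit and amplified with a Nugen Ovation system, per the labels. The deposited values are probe set intensities on a linear scale, 1 column per array. RMA (background correction, quantile normalisation and probe summary) is named per the submitters' processing notes, without version or settings; it can compress differences of dim probe sets. Here log2 was taken with no pseudocount, 64 control probe sets were left out and 22626 were tested in R 4.3.3 with limma 3.58.1 (lmFit, eBayes, two-sided, Benjamini-Hochberg over all probe sets, threshold 0.05). Signed differences subtract the wild-type mean from the mutant mean and carry limma's standard error. Symbols came from the platform annotation of 2016, and 20380 probe sets had 1 symbol, 691 several and 1555 none. The fit was tested on simulated data. No pair of arrays shared more than 0.186% of values. Members, gene lists, tests and alternatives were chosen with earlier results of these data known. Named in the text are all members, the 3 genes of lowest p in the early gene, chaperone, regulator and neuronal lists, a set of classical members of these lists, the 2 macrophage genes of lowest p, the genes most like Fos and Hspa1b, and genes stated to be picked afterwards. Alternatives are given in the closing section. The number of arrays limits the precision.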

Additional observations from a re-analysis of the deposited data

How the results depend on the processing

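The 16 alternatives that give calls called 0 member probe sets each, with lowest adjusted p in limma of 0.284 to 1 among members. The mean of the probe sets of a gene was run for differences and SDs only. Over all probe sets the 16 called 0 as well, except for array weights, which called 7 and gave wild-type replicate 3 a weight of 5.65 against 0.224 for wild-type replicate 1. Of 157 recomputed differences of single members, 0 turned against a main value larger than its standard error. A smaller main value was treated as having no direction, so Fos, Jun, Junb, Egr1 and Dusp1, 5 of the 10 genes, could not count as turned. Of these, Fos (-0.06 without mutant replicate 2) and Egr1 (0.20 without mutant replicate 3) changed sign. Jun (-0.04) and Dusp1 (-0.05) did so without wild-type replicate 1. The median difference of the 10 genes ran from -0.09 (wild-type 1 and mutant 2 both left out) to 0.39 (without wild-type replicate 2); with single arrays left out it was 0.06 to 0.39. Their median SD within groups was 0.49, and 0.29 to 0.55 with single arrays left out, 0.20 with both arrays left out and 0.31 with the replicate number as a block. Whether the replicate numbers pair the samples could not be settled with 3 arrays per group. Over all probe sets, deviations of same-numbered arrays correlated at -0.07, -0.26 and -0.16, and the block left 0 calls. With the block the SE of the Fos difference was 0.28, against 0.59 without it. Dim probe sets bound what can be read for Junb, Atf3 and Egr2.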
